A study of Mus musculus with 6 samples.

Results

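The genes described here are 38 genes of the endothelium and of the vessels it lines, taken by name from the 35275 genes of a mouse kidney count table. All 38 names were found, each once, and all 38 had enough counts for a test, with at least 20 counts in every library. They were grouped by textbook role into 16 surface, junction and secreted genes found across the endothelium, 5 transcription factors, 2 glomerular genes, 8 genes of capillary and peritubular vessels, 4 genes of arteries and veins and 3 lymphatic genes. The kidneys came from wild-type C57Bl/6 mice, 28 days after ischaemia-reperfusion injury, in which blood flow to the kidney is stopped and then let back. The severe group had 35 min of ischaemia (3 kidneys) and the mild group 20 min (3 kidneys). Both groups were injured and uninjured kidneys were not analysed here, so each difference is between long and short ischaemia. Poly-A RNA of the kidney was sequenced, and the libraries carry the numbers 13, 14 and 15 (severe) and 7, 8 and 9 (mild). Whether the 6 kidneys are from different mice is not stated in the labels, and p-values therefore cover the spread of these 6 samples alone.

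The kidney holds several kinds of endothelium. Glomerular endothelium is perforated and filters blood together with podocytes, peritubular capillaries take up what the tubules reabsorb, arteries and veins carry the flow, and lymphatic vessels drain fluid and immune cells. Loss of peritubular capillaries is a known feature of kidneys that scar after ischaemia. In RNA of a whole tissue, fewer cells of a type and less RNA per cell cannot be told apart. A value also depends on what else the tissue holds, since each library is scaled to its total.

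Libraries held between 15240491 and 17730967 gene counts. Levels are given as CPM, a library's counts of a gene relative to its total, after scaling with the trimmed mean of M values (TMM). Each difference is a log2 fold change of severe over mild from the quasi-likelihood test of edgeR, with its standard error and a p adjusted by the Benjamini-Hochberg method over all 14883 genes tested. Only 2 of these genes (0.0134%) passed an adjusted p of 0.05. Summed leukocyte markers, and fibroblast and mural cell markers summed together, stood higher in severe kidneys. Summed tubule markers stood lower. Each sum was furthest from the mild libraries in severe library 14. Col1a1 was the highest gene of the fibroblast and mural sum, and the mural gene Myh11 did not stand higher (-0.18). The 9 leukocyte markers summed to between 526 and 993 CPM in severe and between 279 and 338 CPM in mild libraries. Lyz2 was the highest gene of this sum, and the T cell gene Cd3e overlapped between the groups (0.27 ± 0.59). The 7 proximal tubule markers summed to between 11835 and 24468 CPM in severe and between 27847 and 30443 CPM in mild libraries. Severe library 13 stood apart by its red cell RNA, with 51.3 CPM over 5 haemoglobin and haem genes against 1.92 to 11.3 CPM in the other libraries.

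Differences in endothelial genes between severe and mild kidneys were small, and most genes stood somewhat higher in severe kidneys. The median log2 fold change of the 38 genes was 0.16, beside 0.000194 over all tested genes, and 30 of the 38 stood above 0, beside 50.1% of all tested genes. With edgeR 0 of the 38 passed the adjusted threshold, and the lowest adjusted p was 0.0873. At an unadjusted p under 0.05, 10 genes were higher (26.3%, beside 15.8% of all tested genes) and 1 was lower (2.63%, beside 7.89%). Every severe library lay above every mild library for 9 genes (23.7%, beside 17.9% of all tested genes) and below for 1 gene (2.63%, beside 16.1%). The other 28 genes had overlapping groups. The share on the lower side was well under that of the table as a whole, and the shares on the higher side were somewhat over it. Scaled to the library total in place of TMM, which lifts the median of all genes by 0.169, 20 of the 38 genes were higher and 0 lower at an unadjusted p under 0.05, beside 24% and 2.43% of all tested genes.

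**Figure D1:**
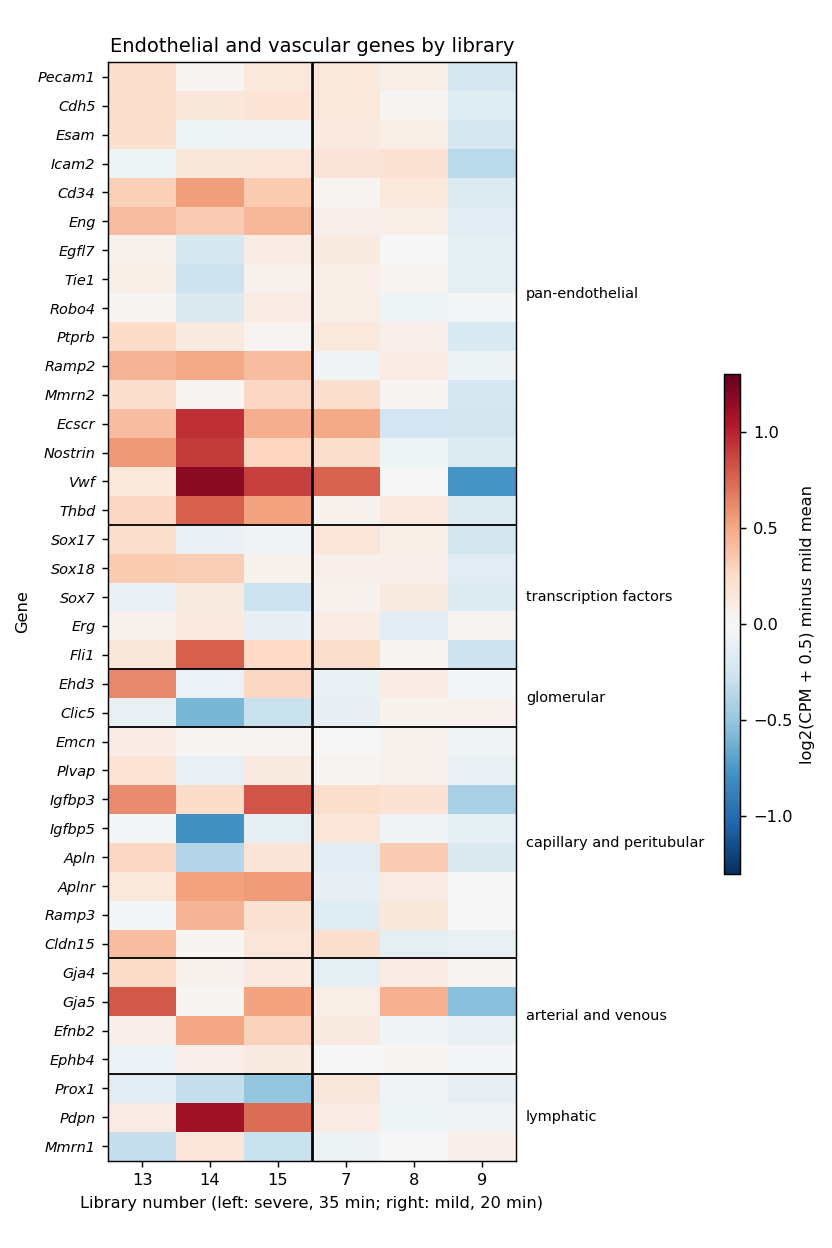
Level of each of the 38 genes (rows, by class) in each library (columns, severe on the left of the black line, mild on the right), as log2(CPM + 0.5) minus the mean of the mild libraries. Mild library 9 is pale to dark blue in most rows, and within the severe libraries 14 holds both the darkest red (Vwf, Pdpn, Ecscr, Nostrin) and the darkest blue (Igfbp5, Clic5).

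A single mild library weighed on these values. Mild library 9 was the lowest of the mild libraries for 27 of the 38 genes (71.1%), beside 35.2% of all tested genes. The median over the 38 genes was 0.090 without it and 0.109 without severe library 13. The 38 genes also varied more among mild kidneys than most genes did, with a median SD of 0.184 in severe and 0.144 in mild kidneys on the log2 scale, beside 0.184 and 0.0995 for all tested genes. Other fits made more calls. DESeq2 called 3 of the 38 genes, Ramp2, Eng and Thbd, all higher in severe kidneys (7.89%). Of all genes with an adjusted p there it called 8.19%, with 7.19% higher and 0.993% lower. With limma-voom 0 of the 38 passed, with 9 higher and 2 lower at an unadjusted p under 0.05, beside 14.4% and 8.85% of all tested genes. Without severe library 13 edgeR called 7 higher (18.4%, beside 13.8%) and 1 lower (2.63%, beside 7.74%). The 7 were Ramp2, Eng, Cd34, Thbd, Aplnr, Efnb2 and Pdpn, and the lower one was Clic5. Without severe library 14 it called Eng and Ehd3, both higher (5.26%, beside 2.4% higher, 0.931% lower and 3.33% in all among tested genes).

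**Figure D2:**
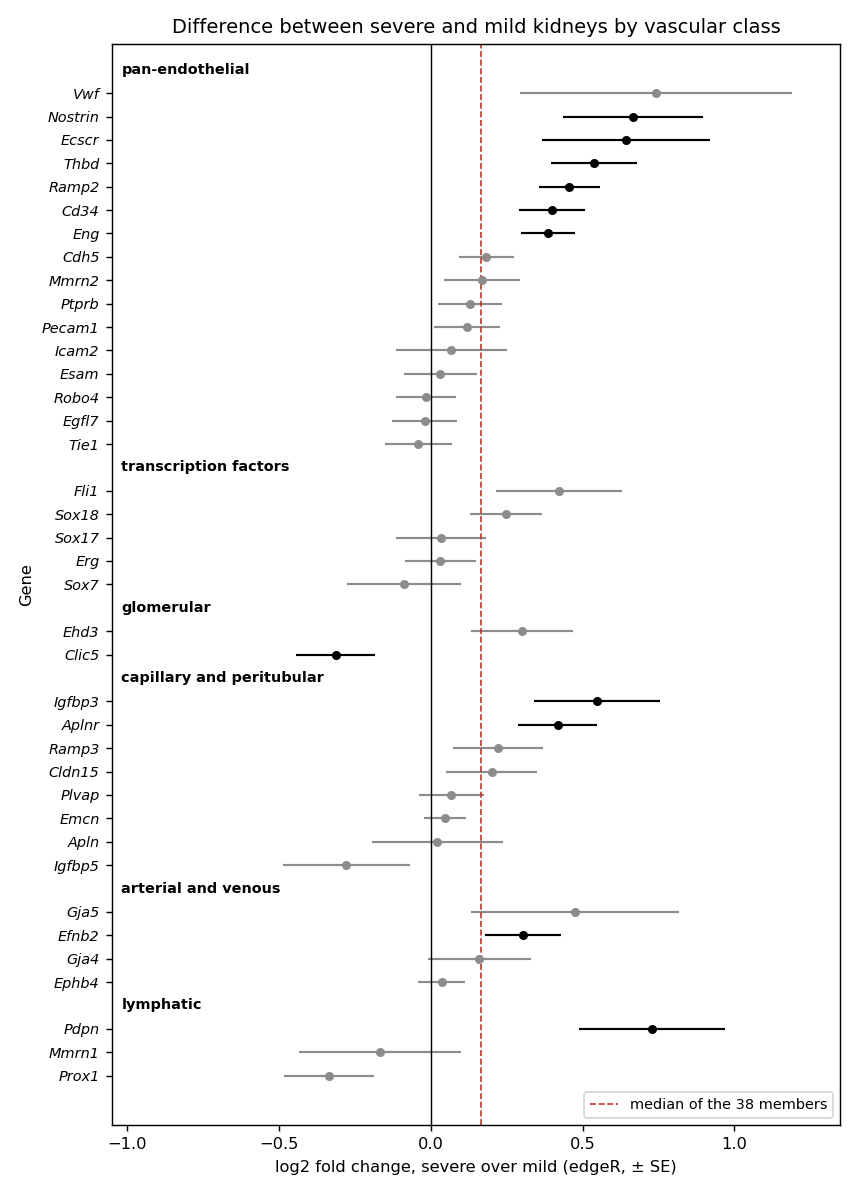
Log2 fold change of severe over mild (x axis; points, edgeR estimate; bars, SE) for the 38 genes by class, with genes of an unadjusted p under 0.05 in black and the others in grey. The points spread from -0.34 (Prox1) to 0.74 (Vwf) around a median of 0.16, shown by the broken line.

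Several of the best known pan-endothelial genes, such as Pecam1 and Cdh5, differed little between the groups. The surface genes Eng, Cd34 and Thbd, given further below, differed more. Pecam1, which encodes the junction protein CD31, had 93.75, 82.9 and 89.2 CPM in severe libraries 13, 14 and 15 and 89.3, 85.8 and 69.7 CPM in mild libraries 7, 8 and 9. The groups overlapped, and only mild library 9 was low. Its log2 fold change was 0.12 ± 0.11 (edgeR, adjusted p = 0.501), and 0.025 without mild library 9. Cdh5, the adherens junction cadherin of endothelium, had 59.6, 56.1 and 57.4 CPM in severe and 55.9, 51.3 and 45.2 CPM in mild libraries. All severe libraries were above all mild ones, by a narrow margin over mild library 7, and the log2 fold change was 0.18 ± 0.09 (edgeR, adjusted p = 0.251), and 0.11 without mild library 9. The junction gene Esam stood at 0.032 ± 0.121, Icam2, a ligand of leukocyte integrins, at 0.068 ± 0.183 and the receptor phosphatase Ptprb, which acts on the angiopoietin receptor, at 0.13 ± 0.11. The orphan receptor Tie1 stood at -0.041 ± 0.111, the guidance receptor Robo4, which steadies the vessel barrier, at -0.015 ± 0.098 and the secreted Egfl7 at -0.021 ± 0.106. The matrix protein Mmrn2 stood at 0.17 ± 0.13. Groups overlapped for these 7 genes, and Tie1, Robo4 and Egfl7 stood above 0 with scaling to the library total (0.12, 0.15 and 0.14). That scaling put the median of all tested genes at 0.169, above each of these values.

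In the same class, 6 of the 16 pan-endothelial genes had an unadjusted p under 0.05, all higher in severe kidneys, beside 15.8% of all tested genes. Ramp2, the partner protein that turns the calcitonin receptor-like receptor into the adrenomedullin receptor, had 17.4, 18.1 and 17.0 CPM in severe libraries 13, 14 and 15, against 12.3, 13.8 and 12.1 CPM in mild libraries 7, 8 and 9. The severe values were tight and all lay above the mild ones. Its log2 fold change was 0.46 ± 0.10 (edgeR, adjusted p = 0.0873), a fold of 1.37, and it stayed between 0.43 and 0.52 with any 1 library left out. Eng, which encodes endoglin, a co-receptor for TGF-beta and BMP9, had 118, 112 and 120.3 CPM in severe and 93.5, 93.5 and 80.6 CPM in mild libraries. The groups were again clear of each other, and the log2 fold change was 0.39 ± 0.09 (edgeR, adjusted p = 0.0885). In mm10, Ramp2 spans 101246028 to 101259546 of chromosome 11 and Eng 32646595 to 32682669 of chromosome 2, both on the plus strand.

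Thbd encodes thrombomodulin, the surface protein that turns thrombin towards anticoagulation. It had 43.6, 62.3 and 52.1 CPM in severe and 37.4, 39.5 and 31.9 CPM in mild libraries, highest in severe library 14 and without overlap. The log2 fold change was 0.54 ± 0.14 (edgeR, adjusted p = 0.107). Cd34, a sialomucin of small vessels and also of fibroblast-like cells, had 39.8, 46.9 and 40.8 CPM in severe and 32.9, 35.4 and 28.3 CPM in mild libraries. These groups did not overlap either, and the log2 fold change was 0.40 ± 0.11 (edgeR, adjusted p = 0.110). Nostrin, an adaptor that moves endothelial nitric oxide synthase inside the cell, was low, with 5.35, 6.92 and 4.30 CPM in severe and 4.14, 3.29 and 3.02 CPM in mild libraries. Severe library 15 was just above mild library 7, and the log2 fold change was 0.67 ± 0.23 (edgeR, adjusted p = 0.155). Ecscr, an endothelial surface protein that affects cell migration, had 5.52, 8.33 and 5.84 CPM in severe and 5.93, 3.35 and 3.36 CPM in mild libraries. Here mild library 7 was within the severe range, and the log2 fold change of 0.64 ± 0.28 (edgeR, adjusted p = 0.211) was 0.97 without it. Vwf, the clotting factor stored in endothelium and platelets, scattered most, with 3.26, 7.20 and 5.84 CPM in severe and 5.31, 2.93 and 1.51 CPM in mild libraries. The groups overlapped, and its log2 fold change of 0.74 ± 0.45 (edgeR, adjusted p = 0.321) ran from 0.41 without mild library 9 to 1.28 without mild library 7. The 5 platelet markers summed to between 11.3 and 14.01 CPM in severe and between 9.94 and 12.6 CPM in mild libraries. Among them Itga2b, the highest gene of the sum, stood at -0.30 ± 0.18 and Pf4 at 1.39 ± 0.43. The part of platelets in the Vwf value was not tested.

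**Figure D3:**
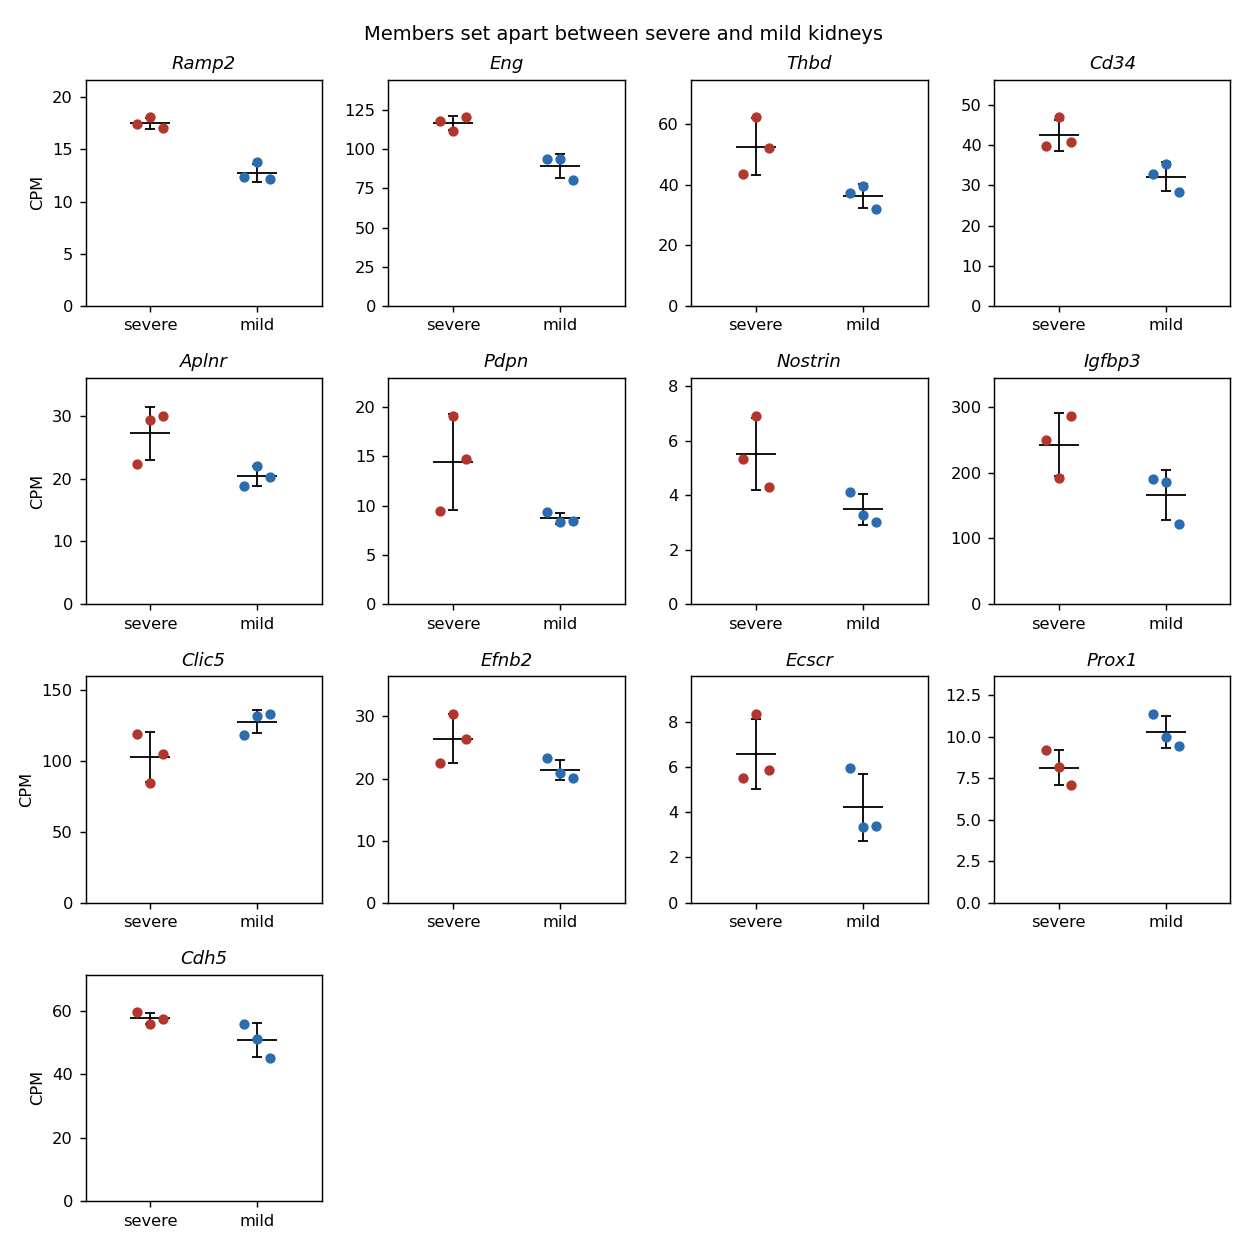
CPM (y axis, from 0) in severe (left, red) and mild (right, blue) kidneys for the 13 genes that had an unadjusted p under 0.05 or groups that did not overlap, each point 1 library, with the mean and SD in black. Ramp2 and Eng show the clearest gap, whereas the nearest libraries of the groups almost meet for Pdpn and Igfbp3.

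Promoters are shown for the pair of genes with the smallest p-values among those with a promoter in the reference table, Eng and Cd34, and for Emcn, whose log2 fold change was small (0.047) and whose window holds motifs of both kinds. Each sequence is the 250 bases before the RefSeq start in GRCm38.p6, on the gene's strand, and capitals mark a motif that was searched on both strands. The motifs were CCGGAA and CAGGAA, cores bound by ETS factors such as Erg and Fli1, and AACAAT, a core bound by SOX factors; either ETS core can overlap AACAAT in its last letters. Eng is read from chr2:32646345-32646594 (plus), Cd34 from chr1:194938571-194938820 (plus) and Emcn from chr3:137340828-137341077 (plus).
Eng: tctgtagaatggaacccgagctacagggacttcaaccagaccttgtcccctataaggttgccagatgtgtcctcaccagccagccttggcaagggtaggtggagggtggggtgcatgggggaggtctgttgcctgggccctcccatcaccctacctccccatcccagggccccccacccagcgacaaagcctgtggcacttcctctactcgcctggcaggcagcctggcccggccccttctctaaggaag
Cd34: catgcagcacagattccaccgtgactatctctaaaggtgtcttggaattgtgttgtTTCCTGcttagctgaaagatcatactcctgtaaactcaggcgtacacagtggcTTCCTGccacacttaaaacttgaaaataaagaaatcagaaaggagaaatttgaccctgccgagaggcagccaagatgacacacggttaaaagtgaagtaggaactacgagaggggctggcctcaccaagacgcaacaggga
Emcn: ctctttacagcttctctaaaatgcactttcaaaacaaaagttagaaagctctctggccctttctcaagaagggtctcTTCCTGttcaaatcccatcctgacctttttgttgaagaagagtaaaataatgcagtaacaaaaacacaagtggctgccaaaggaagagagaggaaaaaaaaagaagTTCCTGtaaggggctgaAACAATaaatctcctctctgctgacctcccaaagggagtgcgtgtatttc
Cd34 and Emcn each hold 2 copies of CAGGAA, Emcn also holds 1 copy of AACAAT, and in the Eng window these letters are not found. Of the 38 genes 22 matched a promoter in the table, with the first listed start taken for each gene. CAGGAA was in 9 of the 22 (40.9%), beside 25.4% of 27025 promoters of all genes, CCGGAA in 2 (9.09%, beside 12.2%) and AACAAT in 2 (9.09%, beside 9.65%). CAGGAA was in 2 of the 7 promoters of genes with an unadjusted p under 0.05 and in 7 of the other 15. A match of letters describes the window and does not show binding.

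The 5 transcription factors that specify endothelium overlapped between severe and mild kidneys. Their median log2 fold change was 0.034 (edgeR), and 0 of the 5 had an unadjusted p under 0.05 or groups without overlap. Sox17, an arterial SOX factor, had 16.7, 13.3 and 13.8 CPM in severe and 15.9, 15.0 and 11.9 CPM in mild libraries, a log2 fold change of 0.034 ± 0.148. Erg, the ETS factor that maintains endothelial identity, stood at 0.031 ± 0.116 and Sox7, another SOX factor of early endothelium, at -0.090 ± 0.188. Sox18, a SOX factor of blood and lymph vessels, stood at 0.25 ± 0.12 with 21.6, 21.3 and 17.5 CPM in severe and 17.8, 17.67 and 15.4 CPM in mild libraries, so that severe library 15 lay within the mild range. Fli1, an ETS factor of endothelium that leukocytes and megakaryocytes also use, stood at 0.42 ± 0.21 (edgeR, adjusted p = 0.247), and at 0.20 without severe library 14. It had 11.5, 18.0 and 12.5 CPM in severe and 12.2, 10.6 and 8.51 CPM in mild libraries, highest in severe library 14, where the leukocyte markers were highest too (993 CPM). The part of leukocytes in the Fli1 value was not tested.

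The glomerular pair stood on opposite sides of 0. Ehd3, a membrane-trafficking protein that in mouse kidney marks glomerular endothelium, had 45.3, 27.6 and 35.5 CPM in severe libraries 13, 14 and 15 and 27.6, 31.6 and 28.8 CPM in mild libraries 7, 8 and 9. Severe libraries 13 and 15 were above the mild range and severe library 14 was at its lower end. The log2 fold change was 0.30 ± 0.17 (edgeR, adjusted p = 0.292). It was 0.11 without severe library 13 and 0.46 without severe library 14, where it passed (edgeR, adjusted p = 0.0455, in a range of 0.0455 to 0.545 over all alternatives). Clic5, a chloride intracellular channel protein of glomerular endothelium and podocytes, had 119, 84.4 and 105 CPM in severe and 119, 131 and 133 CPM in mild libraries. Severe library 13 was level with mild library 7 and the other severe libraries were below all mild ones, and the log2 fold change was -0.31 ± 0.13 (edgeR, adjusted p = 0.200). It was -0.19 without severe library 14, and without severe library 13 it was -0.43 and passed (edgeR, adjusted p = 0.0339, in a range of 0.0339 to 0.419 over all alternatives). The ratio of Ehd3 to Clic5 CPM did not overlap between groups, at 0.380, 0.327 and 0.339 in severe and 0.233, 0.240 and 0.216 in mild libraries. This pair was chosen after its values were seen, and shares of all genes for ratios to Pecam1 are given further below. Nphs1, a slit diaphragm gene of podocytes, stood at -0.30 ± 0.13, with every severe library below every mild one, while the 10 podocyte markers summed to between 446 and 517 CPM in severe and between 496 and 511 CPM in mild libraries. The part of podocytes in the Clic5 value was not tested.

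Among the 8 capillary and peritubular genes the median was 0.13, and 2 were higher and 0 lower at an unadjusted p under 0.05, beside 15.8% and 7.89% of all tested genes. Plvap, which forms the diaphragm of capillary fenestrae, had 204, 169 and 197 CPM in severe and 186, 189 and 169 CPM in mild libraries, a log2 fold change of 0.067 ± 0.107. Emcn, an endothelial sialomucin of capillaries and veins, had 65.9, 62.5 and 62.8 CPM in severe and 61.5, 63.7 and 59.8 CPM in mild libraries, a log2 fold change of 0.047 ± 0.068. Groups overlapped for both genes. The groups were apart for Igfbp3 and Aplnr. Igfbp3, an IGF carrier protein made by peritubular endothelium, had 249, 191 and 286 CPM in severe and 190.4, 185 and 121 CPM in mild libraries. Severe library 14 was barely above mild library 7, and the log2 fold change was 0.55 ± 0.21 (edgeR, adjusted p = 0.177). Aplnr, the receptor for apelin, had 22.4, 29.4 and 30.0 CPM in severe and 18.8, 21.98 and 20.3 CPM in mild libraries, and the log2 fold change was 0.42 ± 0.13 (edgeR, adjusted p = 0.131).

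Apln, the ligand of that receptor, had 15.6, 9.79 and 14.6 CPM in severe and 11.6, 16.4 and 11.3 CPM in mild libraries, with overlap and a log2 fold change of 0.021 ± 0.216; the difference between ligand and receptor was not tested. Igfbp5, a second IGF carrier, made by capillaries and by other kidney cells, had 532, 311 and 491 CPM in severe and 601, 519.9 and 498 CPM in mild libraries. Severe library 14 was far below the rest and severe library 13 was within the mild range, and the log2 fold change of -0.28 ± 0.21 (edgeR, adjusted p = 0.418) was -0.076 without severe library 14 and -0.42 without severe library 13. The ratio of Igfbp3 to Igfbp5 CPM was 0.468, 0.616 and 0.582 in severe and 0.317, 0.356 and 0.244 in mild libraries, without overlap. This pair too was chosen after its values were seen. Ramp3, the other adrenomedullin receptor partner in this set, had 13.2, 18.3 and 15.4 CPM in severe and 11.9, 14.9 and 13.4 CPM in mild libraries, overlapping, at 0.22 ± 0.15 and at 0.090 without severe library 14. The ratio of Ramp2 to Ramp3 overlapped between the groups. The tight junction protein gene Cldn15 stood at 0.20 ± 0.15 with overlap.

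Of the 4 arterial and venous genes, all stood above 0, and 1 was higher at an unadjusted p under 0.05, beside 15.8% of all tested genes. Efnb2, the arterial ephrin, had 22.4, 30.4 and 26.4 CPM in severe and 23.2, 20.9 and 20.1 CPM in mild libraries. Severe library 13 was within the mild range, and the log2 fold change was 0.30 ± 0.13 (edgeR, adjusted p = 0.200), and 0.19 without severe library 14. Ephb4, its venous receptor, had 69.1, 76.4 and 79.4 CPM in severe and 73.4, 74.0 and 72.1 CPM in mild libraries, a log2 fold change of 0.036 ± 0.077. The ratio of Efnb2 to Ephb4 CPM was 0.325, 0.398 and 0.332 in severe and 0.316, 0.283 and 0.279 in mild libraries, without overlap but with mild library 7 close below. This pair was also chosen after its values were seen. Both arterial connexins were low and overlapped between the groups. Gja4 had 4.59, 3.94 and 4.18 CPM in severe and 3.45, 4.07 and 3.84 CPM in mild libraries (0.16 ± 0.17). Gja5 had 4.94, 2.70 and 3.996 CPM in severe and 2.83, 3.83 and 1.65 CPM in mild libraries (0.48 ± 0.34, and 0.22 without mild library 9).

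The 3 lymphatic genes stood on both sides of 0, with a median of -0.17 that was 0.013 with scaling to the library total. The median of all tested genes was 0.169 with that scaling. Prox1, the transcription factor that fixes lymphatic identity and is also made in the loop of Henle of mouse kidney, had 9.19, 8.16 and 7.07 CPM in severe and 11.4, 10.001 and 9.47 CPM in mild libraries. It was the single member for which every severe library lay below every mild library, and the log2 fold change was -0.34 ± 0.15 (edgeR, adjusted p = 0.215). Beside it, the 5 loop of Henle markers summed to between 3818 and 6301 CPM in severe and between 6797 and 6962 CPM in mild libraries. Umod was the highest gene of this sum, and Cldn16 did not stand lower (0.052). Pdpn, podoplanin, found on lymphatic endothelium, podocytes and fibroblasts, had 9.42, 19.1 and 14.8 CPM in severe and 9.37, 8.32 and 8.44 CPM in mild libraries. Severe library 13 was level with mild library 7 and severe library 14 was highest, and the log2 fold change was 0.73 ± 0.24 (edgeR, adjusted p = 0.144), and 0.47 without severe library 14. The 10 mural and fibroblast markers summed to 694, 1658 and 997 CPM in severe libraries 13, 14 and 15, and to between 386 and 468 CPM in mild libraries. Col1a1 alone gave 265, 860 and 444 CPM of the severe sums. Mmrn1, a secreted protein of lymphatic endothelium and platelets, had the lowest level per length of the 38 genes, with 1.22, 1.86 and 1.23 CPM in severe and 1.52, 1.62 and 1.72 CPM in mild libraries (-0.17 ± 0.27). Of other lymphatic genes, named after their values were seen, the receptor Flt4 stood at 0.22 ± 0.13. Ccl21a stood at 0.016 ± 0.242 and Reln at -0.22 ± 0.26. The hyaluronan receptor Lyve1 had too few counts for a test. The part of tubule, podocyte and fibroblast RNA in the Prox1 and Pdpn values was not tested.

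Ratios within a library do not depend on how libraries are scaled. Set against Pecam1 in the same library, 6 of the other 37 genes were higher in every severe than in every mild library (16.2%, beside 6.07% of all tested genes) and 4 were lower (10.8%, beside 25.4%). The higher ones were Ramp2, Eng, Cd34, Thbd, Nostrin and Igfbp3, and the lower ones Tie1, Clic5, Igfbp5 and Prox1. Eng stood at 1.26, 1.347 and 1.348 times Pecam1 in severe and at 1.05, 1.09 and 1.16 times in mild libraries. Tie1 stood at 0.671, 0.596 and 0.695 times Pecam1 in severe and at 0.710, 0.713 and 0.786 times in mild libraries. Of 6 ratios between pairs of members, chosen after their values were seen, 4 did not overlap between groups (Ehd3 to Clic5, Igfbp3 to Igfbp5, Efnb2 to Ephb4 and Pdpn to Prox1). Each of these had p = 0.1 in a two-sided exact permutation test over the 20 assignments of the libraries, and 0.15 adjusted over the 6 pairs. With 3 against 3 this is the smallest p, and any ratio without overlap must reach it. The test therefore adds nothing to the lack of overlap, and its adjustment does not cover the choice of pairs. How often ratios of other gene pairs lack overlap was not computed. Ehd3 to Clic5 averaged 0.349 ± 0.028 in severe and 0.230 ± 0.012 in mild kidneys (SD, n = 3 each), and Igfbp3 to Igfbp5 averaged 0.556 ± 0.077 in severe and 0.306 ± 0.057 in mild kidneys.

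**Figure D4:**
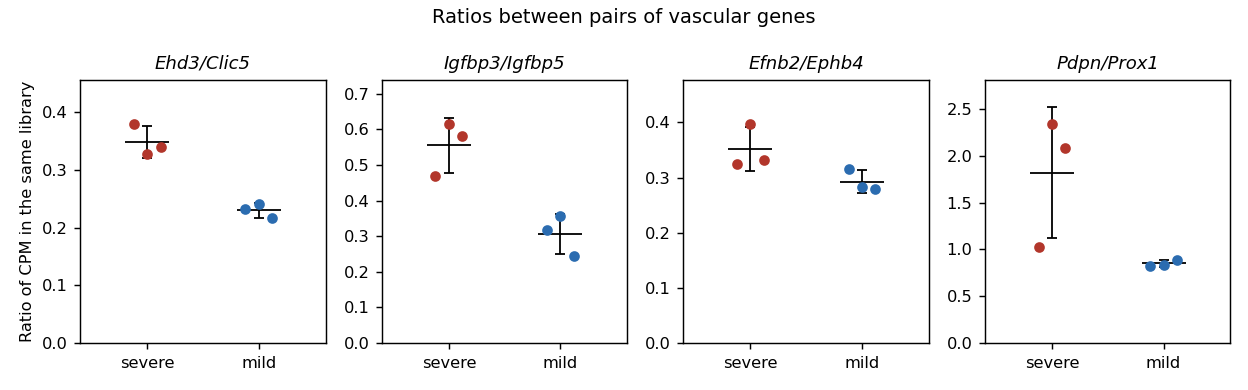
Ratio of CPM of a pair of genes in the same library (y axis, from 0) in severe (left, red) and mild (right, blue) kidneys, each point 1 library, with the mean and SD in black. The 4 pairs shown are those without overlap, so the severe libraries lie above the mild ones in each. The gap is widest for its spread in Ehd3 to Clic5.

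Levels can be compared between genes only per length, here with the gene length of the deposited table, and the same 3 genes led in both groups. In CPM per kilobase, Igfbp3 stood at 100.1 ± 19.7 in severe and 68.4 ± 15.9 in mild kidneys, Plvap at 94.2 ± 9.3 in severe and 89.9 ± 5.2 in mild, and Igfbp5 at 74.0 ± 19.6 in severe and 89.8 ± 9.1 in mild (SD, n = 3 each). In severe kidneys the ranges of mean ± SD of these 3 capillary genes overlapped, though Igfbp5 was the lowest of them in each severe library. Their order within a library was not tested. Eng followed at 32.6 ± 1.2 in severe and 25.0 ± 2.1 in mild kidneys and Pecam1 at 25.8 ± 1.6 in severe and 23.7 ± 3.0 in mild. Eng was above Pecam1 in severe kidneys by more than their spread. In mild kidneys their ranges of mean ± SD overlapped, with Eng slightly above Pecam1 in each library. At the low end were Vwf at 0.615 ± 0.227 in severe and 0.368 ± 0.217 in mild kidneys and Mmrn1 at 0.321 ± 0.081 in severe and 0.361 ± 0.022 in mild.

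Further genes of endothelium, a list of 40 that holds none of the 38, stood mostly on the higher side too. Of the 36 tested, 0 passed the adjusted threshold, 11 stood higher and 0 lower in severe kidneys at an unadjusted p under 0.05 (beside 15.8% and 7.89% of all tested genes), and the median log2 fold change was 0.21. The 4 with the smallest p were Nrp1 and Nrp2, co-receptors for VEGF and semaphorins, the plasminogen activator Plat and the scavenger receptor Stab1. Nrp1 had 143, 183 and 157 CPM in severe and 113, 106 and 109 CPM in mild libraries, and the log2 fold change was 0.56 ± 0.11 (edgeR, adjusted p = 0.0867). Nrp2 stood at 0.73 ± 0.16, Plat at 0.97 ± 0.25 and Stab1 at 0.79 ± 0.21, all without overlap. These genes are also used by macrophages, mural cells or fibroblasts. Summed leukocyte markers, and the joint mural and fibroblast sum with Col1a1 its highest gene, stood higher in severe kidneys. The part of those cells was not tested.

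The mural and fibroblast list had a median of 1.07 over 10 genes, with Des at 0.998, Col1a1 at 2.06, Pdgfrb at 1.32 and Pdgfra at 1.86. The leukocyte list had a median of 1.03 over 8 tested genes, with Cd68 at 1.27, Lyz2 at 1.73, C1qb at 1.07 and C1qa at 1.14. The T cell gene Cd3e of that list stood at 0.27 ± 0.59, with overlap. Of the 10 mural and fibroblast genes 9 stood above 0, among them the mural genes Rgs5 at 0.30 and Cspg4 at 0.22. The mural gene Myh11 stood below, at -0.18. The podocyte list had a median of 0.031, with Magi2 at -0.34. For proximal tubule genes the median was -0.53 over 7 genes, with Slc5a2 at -0.60, Cubn at -0.51, Lrp2 at -0.54 and Slc34a1 at -0.53. The loop of Henle list had a median of -0.45, with Bsnd at -0.64, Kcnj1 at -0.51, Slc12a1 at -0.45 and Umod at -0.36. Its other gene, Cldn16, stood at 0.052 with overlap. Of 5 platelet genes 2 could be tested, Pf4 at 1.39 and Itga2b at -0.30, and of 5 red cell genes 3, with Hbb-bs at 1.93, Hba-a1 at 1.90 and Hbb-bt at 1.36, in a list whose sum was highest in severe library 13. Adjusted p-values of these genes lay above 0.05 (edgeR).

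**Figure D5:**
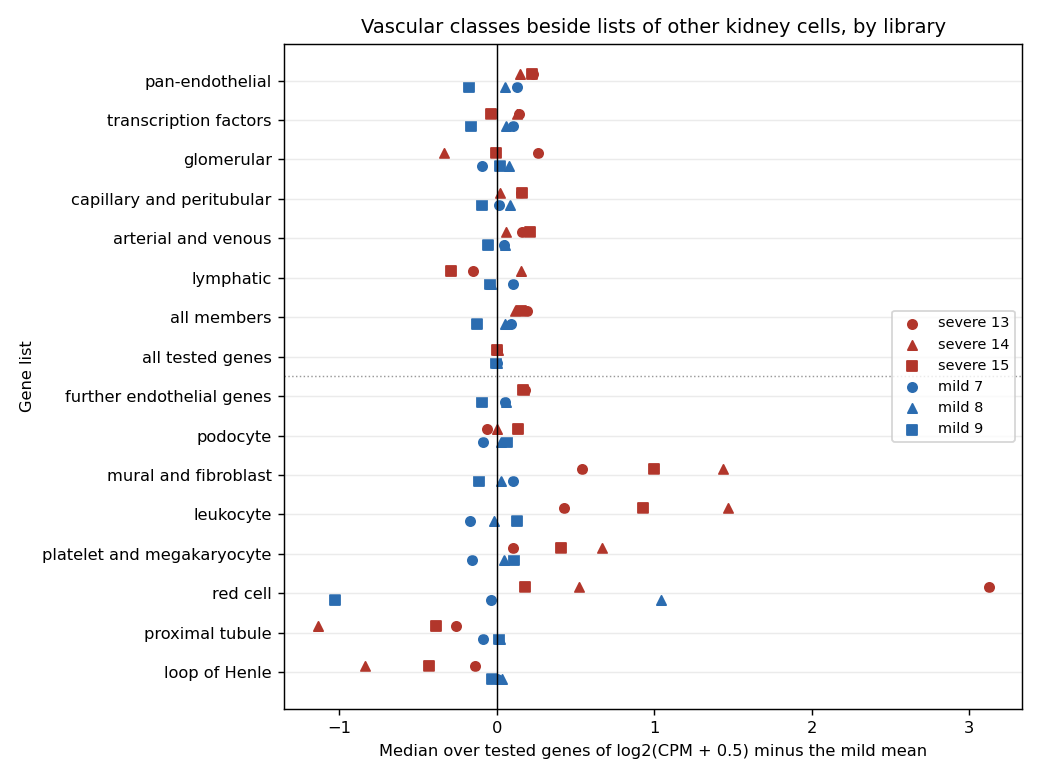
Median over the tested genes of each list of log2(CPM + 0.5) minus the mild mean (x axis) for each library, severe in red above mild in blue, with 1 marker shape for each library of a group; the members' classes and all tested genes stand above the dotted line. All members lie between 0.115 and 0.190 in severe and between -0.128 and 0.094 in mild libraries, whereas the leukocyte list lies between 0.425 and 1.47 in severe and between -0.172 and 0.127 in mild libraries.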

How the data were processed

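Per the labels' protocols, TRIzol RNA was cleared of DNA with DNase, selected on poly-T and built into NEBNext Ultra RNA libraries. The authors deposited raw read counts per gene, and per the submitters' processing notes the tools were HTSeq 0.6.1, TopHat2 2.0.12 and Bowtie2 2.2.3 and the build mm10. Not given in the sources used here are their roles, the strand and the counting mode, so reads of overlapping or antisense genes may be mixed. Columns carry a group and a library number, and the number names no sample title.

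Counts were filtered with filterByExpr, scaled by TMM and tested with edgeR 4.0.16 in R 4.3.3 (robust quasi-likelihood, 3 severe over 3 mild, no covariate). DESeq2 1.42.0, limma 3.58.1, other scalings and filters, and fits without each library were alternatives; the ratio to Pecam1 was added after the data were seen. Only the main edgeR fit was tried on simulated counts, in which all genes had the same spread beyond counting noise. The alternatives were not tried on them. Values in every library were given for members with an unadjusted p under 0.05, for those without overlap, for the first of each class and for others of use to a reader; in other lists the 4 genes of smallest p were named, except some that are not reported here. Members and lists were chosen with earlier results of these data known. A count of 3 corresponds to 0.169 to 0.207 CPM. Any 2 libraries of a group differed by more than counting noise. Promoters are from RefSeq.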

Additional observations from a re-analysis of the deposited data

How the results depend on the processing

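No paired analysis was possible because the library numbers of the severe and mild columns are not shared. The number of all genes past the threshold was 2 with edgeR, 1 with library-total scaling, 146 without a filter, 1171 with DESeq2 and 0 to 3269 with 1 library left out. The number of the 38 genes past it was 0 with edgeR, 3 with DESeq2 and 0 to 8 with 1 library left out, the highest without severe library 13. With library-total scaling the median log2 fold change was 0.33 for all 38 genes, 0.34 for pan-endothelial genes, 0.20 for transcription factors, 0.29 for capillary, 0.40 for arterial and venous and 0.013 for lymphatic genes; this scaling lifted all genes by 0.169, and the 38 genes stood 0.158 above them, beside 0.164 with TMM. The mean of the lymphatic genes was 0.076 where their median was -0.17. For 13 of the 38 genes the sign changed under some setting, the ratio to Pecam1 included, none with a log2 fold change beyond 0.166 in size, and for 25 it did not. Depth limits the genes of few counts most, and the lowest count of any of the 38 genes was 20. The causes of these shifts were not tested.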

Other observations

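Genes in this part were chosen after their values were seen. Calcrl, the receptor that Ramp2 and Ramp3 partner, had 21.2, 37.2 and 20.7 CPM in severe libraries 13, 14 and 15 and 15.8, 18.3 and 14.2 CPM in mild libraries 7, 8 and 9, without overlap (log2 fold change 0.71 ± 0.24; edgeR, adjusted p = 0.144). Its ligand Adm, adrenomedullin, had 5.23, 3.04 and 5.66 CPM in severe and 4.62, 4.85 and 5.35 CPM in mild libraries, with overlap (-0.092 ± 0.247; edgeR, adjusted p = 0.832).

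The adhesion molecules that bind leukocytes had wide spreads in severe kidneys. Vcam1 had 67.1, 239 and 139 CPM in severe and 44.5, 46.4 and 69.4 CPM in mild libraries, and severe library 13 lay just under mild library 9 (1.47 ± 0.41; edgeR, adjusted p = 0.113). Icam1 had 30.7, 56.1 and 47.7 CPM in severe and 23.6, 23.1 and 31.4 CPM in mild libraries, again with severe library 13 inside the mild range (0.79 ± 0.22). Kidney tubule cells and leukocytes can make both, and their part was not tested.

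Of the 36 further endothelial genes tested 27 stood above 0, and 9 below. Cd36, one of the 9 and a fatty acid receptor of capillaries, macrophages and tubule cells, had 391, 171 and 321 CPM in severe and 473, 427 and 424 CPM in mild libraries, without overlap (-0.58 ± 0.27; edgeR, adjusted p = 0.227). Kdr, the main VEGF receptor and another of the 9, had 109, 65.0 and 82.8 CPM in severe and 96.1, 96.1 and 85.7 CPM in mild libraries, with overlap (-0.12 ± 0.17). Gpihbp1, the capillary anchor of lipoprotein lipase, had 13.6, 14.3 and 14.3 CPM in severe and 11.9, 12.04 and 11.8 CPM in mild libraries, without overlap (0.24 ± 0.10; edgeR, adjusted p = 0.199).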
